A study of Mus musculus with 9 samples.

Results

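The livers of preconditioned mice were compared with those of mice that had hepatic ischemia-reperfusion injury (IRI) without protection, with 3 circRNA arrays in each group. The mice were male C57BL/6. In the IRI group the portal vein and hepatic artery were clipped for 1 h, which made most of the liver ischemic, and the liver was reperfused for 6 h. In the ischemic preconditioning (IPC) group the same 1 h of ischemia and 6 h of reperfusion came after a short clipping of 10 min, which was released for 10 min. Both groups therefore had the same long ischemia and reperfusion, and the treatments differed in the short episode before it. Another 3 arrays came from sham mice, whose vessels were isolated but not clipped. Those arrays served for the detection filter, the normalization and the estimate of the spread. The ages of the mice are not given in the sources used here. The circRNAs considered were those whose probe was well above background, by the scanner's own flag, on at least 3 of the 9 arrays. This held for 10536 of the 14236 circRNA probes, and 10535 of them had values in both groups and were tested.

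CircRNAs are closed loops of RNA, usually made when the end of an exon is spliced back to the start of the same or an earlier exon. Having no free ends, they resist exonucleases and tend to be long-lived, and the RNA here was treated with RNase R, which digests linear RNA. Some circRNAs bind miRNAs or proteins. Ischemic preconditioning is the use of a brief ischemic episode to make an organ more resistant to a longer one, and in the liver it is known to lessen hepatocyte death and inflammation after reperfusion. The probes carry the array maker's IDs, which the files used here do not pair with circRNA names, host genes, positions or sequences. For this reason circRNAs are described as probes, their functions cannot be given, and the label of the tissue could not be checked against marker genes. In RNA from whole liver, fewer cells of a type and less of a circRNA per cell cannot be told apart.

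With 3 arrays per group, the number of arrays sets how precise each comparison can be. The IRI arrays had 6659, 11084 and 9012 probes well above background, and the IPC arrays had 6963, 6835 and 11001. The 2 groups overlapped, and their means, 8918 ± 2214 (SD, n = 3) in IRI and 8266 ± 2369 (SD, n = 3) in IPC, did not differ beyond the spread (exact permutation test, two-sided P = 0.90, where 3 arrays against 3 allow no P below 0.10). IRI replicate 2 and IPC replicate 3, the arrays with the most probes above background, were read in scan 2. The other 4 arrays of these groups were read in scan 1. Sham replicate 1, with 11477 probes well above background, was read in scan 2. Sham replicates 2 and 3, with 7507 and 7370, were read in scan 1. A probe could therefore pass the filter of 3 arrays through the scan 2 arrays alone. Among the detected probes, 1508 were well above background on only 1 IRI and 1 IPC array. How many passed through scan 2 alone was not counted. The header of each file gives the date of its scan, and the 2 dates are called scan 1 and scan 2 here. What else differed between the scans is not given.

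The arrays within a group were not alike. With 1 array per liver, differences between livers and differences from labeling or hybridization cannot be told apart. Between IRI replicates 1 and 3, both of scan 1, 40.8% of the detected probes were at least 1.5-fold apart. Between IPC replicates 1 and 2, also of scan 1, the share was 23.4%. Between an IRI and an IPC array of scan 1 it was 24.6% to 38.0%, below the share for the 2 IRI arrays. This order did not hold throughout among probes that all 6 arrays had well above background, where the share was 32.4% both for IRI replicates 1 and 3 and for IRI replicate 3 and IPC replicate 2. For the other scan 1 pairs of an IRI and an IPC array it was 14.0% to 16.7% there. In scan 2 the share between IRI replicate 2 and IPC replicate 3 was 24.4%, whereas arrays of different scans were apart at 38.5% to 49.6% of the probes. All 6 arrays had 6073 of the 10536 detected probes well above background. Among these the SD of the log2 signal over 3 arrays had a median of 0.36 in IRI and 0.31 in IPC. Over the scan 1 arrays alone it was 0.28 for the IRI pair and 0.17 for the IPC pair.

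**Figure D1:**
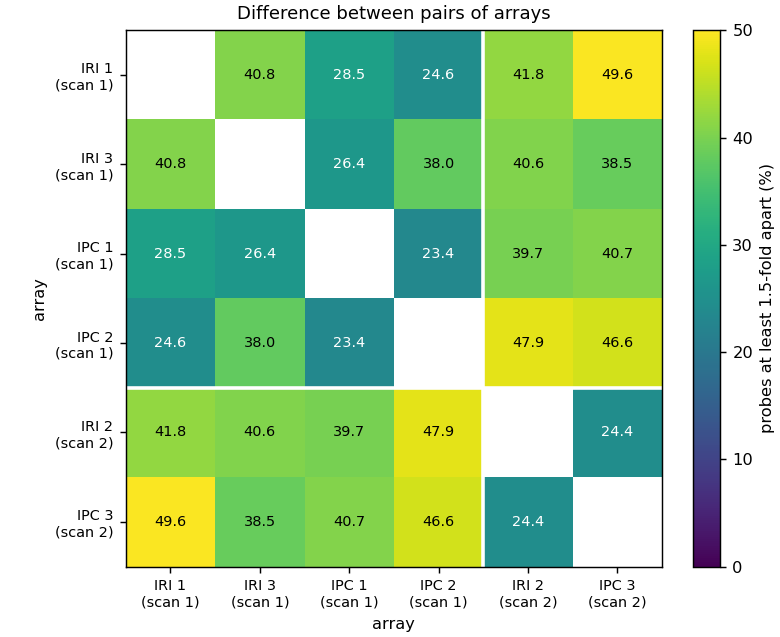
Share of detected circRNA probes, in %, with signals at least 1.5-fold apart between each pair of the 6 IRI and IPC arrays, ordered by scan, with white lines between the scans. IRI replicates 1 and 3 (40.8%) were further apart than any IRI and IPC pair of the same scan (24.4% to 38.0%) over all detected probes, but not over those well above background on all 6 arrays, where they and IRI 3 with IPC 2 were both at 32.4%.

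Compared with IRI, 215 circRNAs were increased in IPC and 160 were decreased, with a fold change of at least 1.5 and an unadjusted P below 0.05 in limma on all 9 arrays. The study names this fold and this P, while its methods do not say which test gave the P-values of the arrays. CircRNAs that met both criteria in limma are called altered here. They made up 3.56% of the 10535 tested, 2.04% increased and 1.52% decreased. Without the fold criterion, 385 circRNAs had a P below 0.05, or 3.65%. In this fit no circRNA passed the Benjamini-Hochberg adjustment, nor did any of the 313 with an unadjusted P below 0.05 in the methods' t-test, a two-tailed test named there for other data and run here on the same values. The smallest adjusted P from limma was 0.642, so no single circRNA can be told from the spread between arrays once all those tested are taken into account. The median change of an increased circRNA was 2.07-fold, and 119 of the 215 were at least 2-fold higher. For the decreased circRNAs the median was 1.98-fold, with 78 of the 160 at least 2-fold lower. On the deposited values the changes of the same circRNAs were smaller, with medians of 1.41-fold for the increased and 1.29-fold for the decreased. There 83 of the 215 and 42 of the 160 reached 1.5-fold. All 6 arrays had a value for 209 of the increased circRNAs, and in 155 of these the IPC arrays all lay above the IRI arrays. Among the decreased circRNAs, 96 of 159 had all IPC arrays below all IRI arrays. Over all circRNAs with 6 values, 3.45% had the IPC arrays above and 3.11% had them below. The altered circRNAs were chosen by fold and P on these same arrays, so their larger shares follow from the choice.

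With the scan as a block in the fit, 331 circRNAs were increased and 274 decreased, or 3.14% and 2.6% of those tested, together 5.74%. Of the 215 increased without the block 210 were among the 331, and of the 160 decreased 155 were among the 274. Within scan 1, which held 2 IRI and 2 IPC arrays, 181 were increased and 203 decreased, or 1.72% and 1.93%, together 3.65%. Only 101 of the 215 and 64 of the 160 were among these. The counts of scan 1 depended on single arrays. Among circRNAs with a scan 2 value, they were 332 and 521 without IRI replicate 1, 516 and 271 without IRI replicate 3, 149 and 171 without IPC replicate 1, and 119 and 188 without IPC replicate 2. The block brought the smallest adjusted P of limma to 0.302, and in scan 1 alone it was 0.774. Scan 2 held 1 IRI and 1 IPC array and allowed no test. There 13.4% of the probes were at least 1.5-fold higher in IPC and 11.1% were at least 1.5-fold lower.

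The clearest changes were sought among altered circRNAs that were well above background on all 6 arrays, had no overlap between the groups and changed in the same direction in both scans. Of the 6072 tested circRNAs that were well above background on all 6 arrays, 76 increased and 28 decreased ones met these conditions. The median change was 1.96-fold among the 76 and 1.84-fold among the 28. The direction and the lack of overlap were conditions here, so these numbers describe the sets and do not test them.

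The largest increase in this set was that of probe ASCRP4007565, whose log2 signals were 7.55, 8.62 and 5.65 on the IRI arrays and 9.46, 8.90 and 11.07 on the IPC arrays. The sham arrays gave 10.06, 8.26 and 9.04. The lowest IPC array was 0.28 above the highest IRI array on the log2 scale, and the IRI arrays themselves spanned more than the IPC arrays did. The IPC mean was 5.80-fold above the IRI mean. On the log2 scale this was a change of 2.53 ± 0.80 (standard error), and limma gave an adjusted P of 1.00. Single arrays moved the size of this change, to 1.72 on the log2 scale without IRI replicate 3, 1.90 without IPC replicate 3 and 3.21 without IRI replicate 2. The difference was 2.58 in scan 1 and 2.45 in scan 2. Its unadjusted P was 0.00993 in limma and 0.0797 in the methods' t-test.

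Probe ASCRP4005781 had the second largest increase among the 76 and a wider gap between the groups. It read 8.80, 9.78 and 8.67 in IRI, against 11.79, 11.03 and 10.95 in IPC, and 10.48, 9.83 and 11.04 in sham. All IPC arrays were at least 1.17 above all IRI arrays on the log2 scale. The change of 2.17 ± 0.41 (standard error) on the log2 scale, or 4.51-fold, had an adjusted P of 0.807 in limma. In scan 1 the log2 difference was 2.68, and in scan 2 it was 1.17. The deposited values gave 2.20, with an adjusted P from limma of 0.388.

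Among the 76, the increases ranked 3 to 10 had log2 fold changes of 1.61 to 1.99, with unadjusted P-values from limma between 0.000200 and 0.0131. Of the 10 largest increases of that set, 9 were at least 1.5-fold and 8 at least 2-fold in each scan taken alone. Their differences were 1.53 to 2.68 in scan 1 and 0.33 to 2.45 in scan 2, on the log2 scale. The deposited values called all 10. For these 10 circRNAs IPC minus sham was between -0.18 and 0.81 on the log2 scale, and IRI minus sham between -1.91 and -0.94. The comparison of IRI with sham uses the same IRI arrays as that of IPC with IRI, so low values on these arrays appear in both.

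Among the 28 decreased circRNAs that met the conditions, probe ASCRP4003063 changed most. Over all 160 decreased circRNAs the log2 fold changes reached -2.24. Its IRI arrays read 9.28, 8.73 and 8.86, and its IPC arrays 6.86, 7.03 and 6.75, with each IPC array at least 1.71 below each IRI array. The sham arrays were spread from 6.79 to 8.73, with the third at 7.08, and so reached from the IPC to the IRI levels. IPC was 4.23-fold below IRI, a log2 change of -2.08 ± 0.45 (standard error), for which limma gave an adjusted P of 0.828. The difference was -2.13 in scan 1 and -1.98 in scan 2.

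Probe ASCRP4009272 had the second largest decrease among the 28. Its signals were 7.78, 9.13 and 6.43 in IRI and 6.08, 6.25 and 6.12 in IPC, and the sham arrays read 6.73, 6.46 and 6.01. IRI replicate 3 lay only 0.18 above the highest IPC array, close to the IPC and sham arrays, while IRI replicate 2 stood far above. Its log2 change was -1.63 ± 0.55 (standard error), or 3.09-fold lower in IPC, and its adjusted P in limma was 1.00. Without IRI replicate 2 it was -0.95, and without IRI replicate 3 it was -2.30. In scan 1 the difference was -0.94, with an unadjusted P from limma of 0.0847, and in scan 2 it was -3.01. The test of the difference between scans gave an unadjusted P of 0.0373 and an adjusted P of 1.00 in limma, and the decrease within scan 1 alone did not pass the criteria.

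**Figure D2:**
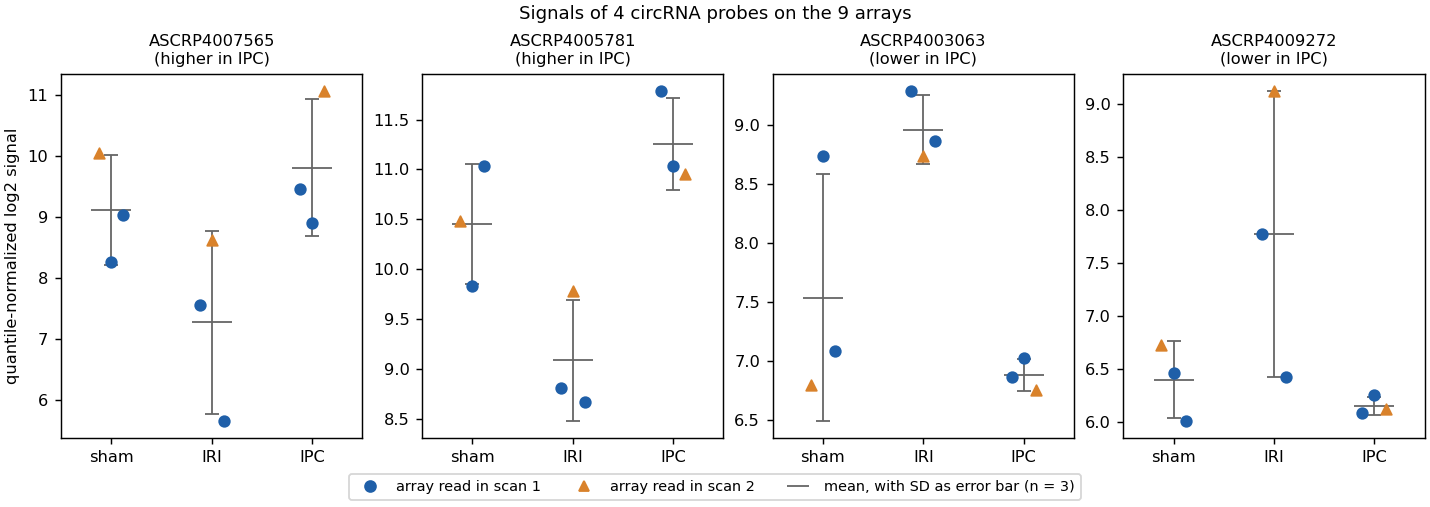
Quantile-normalized log2 signals of the 4 named circRNA probes on the sham, IRI and IPC arrays, with 1 point per array, circles for scan 1, triangles for scan 2, and the mean with its SD (n = 3 per group). IPC and IRI do not overlap in any panel, a condition of the choice, and for ASCRP4009272 the IRI arrays range from 6.43 to 9.13.

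The decreases ranked 3 to 10 among the 28 were smaller, with log2 fold changes of -1.26 to -1.01 and unadjusted P-values from limma between 0.000311 and 0.0327. All 10 largest decreases of that set were at least 1.5-fold in each scan, but only 3 were at least 2-fold in each. The deposited values called 9 of the 10. On these 10 circRNAs IPC minus sham was between -0.66 and 0.39 on the log2 scale, and IRI minus sham between 0.73 and 1.52, again with the IRI arrays shared.

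The 2 scans share no array, so changes found in one can be looked for in the other. Across the 10470 circRNAs with all 6 values, the IPC minus IRI difference of scan 1 correlated with that of scan 2 at a Pearson r of 0.26 and a Spearman rho of 0.24. For the 6008 of these that all 6 arrays had well above background, r was 0.34 and rho 0.28. These correlations are across circRNAs, which are not independent replicates, and all arrays were normalized together. The sign was the same in both scans for 57.7% of the 10470.

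Of the circRNAs increased within scan 1, 180 had a scan 2 value, and 139 of these, or 77.2%, were higher in IPC in scan 2 as well. Over all circRNAs tested the share higher in scan 2 was 52.0%. In scan 2, 76 of the 180 were at least 1.5-fold higher, or 42.2%, against 13.4% of all circRNAs, and 11 were at least 1.5-fold lower. Of the 203 circRNAs decreased within scan 1, 126, or 62.1%, were lower in scan 2, where 48.0% of all were. Of the 203, 42 were at least 1.5-fold lower in scan 2, or 20.7% against 11.1% of all, and 17 were at least 1.5-fold higher. Whether increases and decreases differ in this respect was not tested.

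When the fit within scan 1 kept only circRNAs that all 6 arrays had well above background, 90 of 106 increased ones were also higher in scan 2, or 84.9% against 49.9% of all such circRNAs. For the decreased ones it was 41 of 52, or 78.8% against 50.1%.

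The shares were lowest without IRI replicate 1. IRI replicate 3 alone then stood for IRI in scan 1, and the spread came from the pairs of the other groups, so that the lone array was assumed to vary like them. Among circRNAs that all 6 arrays had well above background, 55.2% of the increased and 50.6% of the decreased ones then had the same direction in scan 2, and over all circRNAs tested 55.4% and 45.3%. Without IRI replicate 3 the shares were 89.1% and 90.5% in the restricted set and 77.1% and 78.6% over all. Leaving out IPC replicate 1 or 2 gave 80.6% to 91.5% of the increased and 63.6% to 81.8% of the decreased circRNAs in the restricted set. Over all circRNAs tested it gave 74.8% to 83.2% and 53.7% to 58.5%.

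**Figure D3:**
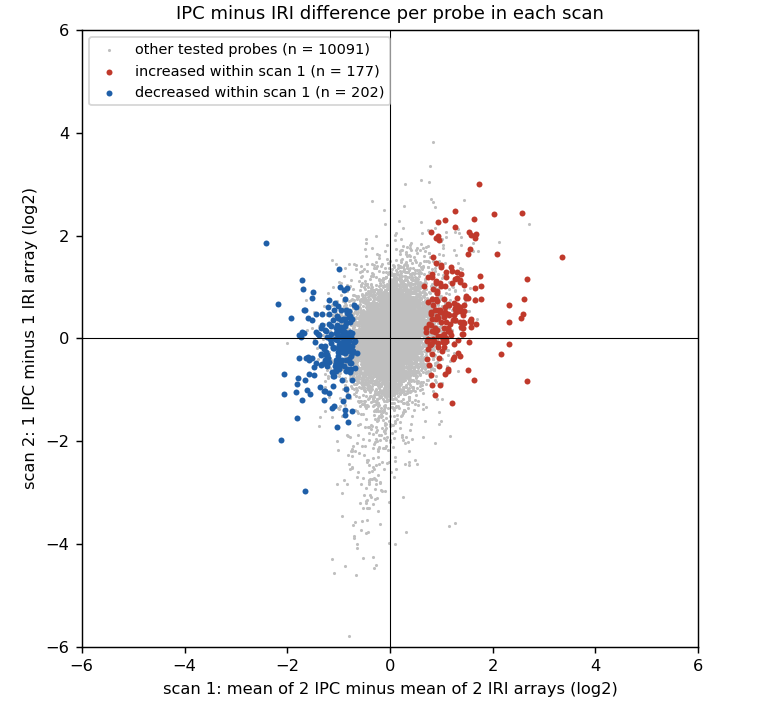
IPC minus IRI difference on the log2 scale in scan 1 (x axis, means of 2 arrays each) and in scan 2 (y axis, 1 array each), with 1 point per circRNA probe; red and blue mark those increased or decreased within scan 1. More red points lie above 0 on the y axis (77.2%) than among all probes tested (52.0%), and a tail of mostly grey points reaches below -2 in scan 2.

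A direct test of the difference between scans, as an interaction term in limma, gave an unadjusted P below 0.05 for 256 circRNAs, or 2.43% of 10517, and none after adjustment, with a smallest adjusted P of 1.00. With 1 array per group in scan 2 this test can show only large differences.

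The tail in scan 2 was examined after its values had been seen. In IPC replicate 3, 134 circRNAs were at least 4-fold lower than in IRI replicate 2, which is 1.27% of those measured. Their median log2 signal was 7.28 on IRI replicate 2 and 4.52 on IPC replicate 3, which chose them. On the scan 1 arrays, which did not, it was 6.60 on IRI replicate 1, 5.20 on IRI replicate 3, 5.93 on IPC replicate 1 and 5.32 on IPC replicate 2. The sham arrays had medians of 5.07, 4.70 and 5.41. IRI replicate 1 was thus high together with IRI replicate 2, whereas IRI replicate 3 was not. Of the 133 with values on all scan 1 arrays, 116 were higher on IRI replicate 1 than on both IPC arrays, or 87.2%, where 36.3% of all circRNAs tested were. IRI replicate 3 was above both IPC arrays for 11, or 8.27%, where 40.1% of all were, and below both for 78, or 58.6%, where 35.0% of all were. Signals were well above background on all 9 arrays for 84 of them.

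The opposite set was smaller, with 38 circRNAs, or 0.361%, at least 4-fold higher in IPC replicate 3 than in IRI replicate 2. In scan 1, 34 of the 38 were lower on IRI replicate 1 than on both IPC arrays, or 89.5% against 32.1% of all, and 24 were lower on IRI replicate 3, or 63.2% against 35.0%. The median log2 signal of the 38 in scan 1 was 4.35 on IRI replicate 1, below the 5.20 and 5.25 of IPC replicates 1 and 2. On IRI replicate 3 it was 5.15, close to those of the IPC replicates. In scan 2 the medians were 4.86 on IRI replicate 2, 7.74 on IPC replicate 3 and 7.06 on sham replicate 1, and the sham arrays of scan 1 had 5.01 and 5.28. The sham array of scan 2 was thus high together with IPC replicate 3.

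Altered circRNAs were spread over bright and dim probes. By mean signal over the 9 arrays, the dimmest 2634 of the tested probes held 73 increased and 68 decreased circRNAs, 2.77% and 2.58% of them. The brightest 2634 held 60 increased and 21 decreased, 2.28% and 0.797%. The median standard error of the log2 fold change was 0.45 in the dimmest and 0.30 in the brightest, so the changes of dim probes were less precise. Among probes well above background on all 6 arrays, 100 of 6072 were increased and 60 decreased, or 1.65% and 0.988%. Those with 4 or 5 such arrays had 3.07% increased and 1.90% decreased, and those with 1 to 3 had 2.36% and 2.39%. A change between the groups itself moves the number of arrays above background, so these shares are a description. Among the 100 brightest probes, which had mean log2 signals of at least 11.9, 2 were increased and 1 was decreased, and 92 differed by less than 1.5-fold between IPC and IRI. The median size of the log2 difference was 0.28 in these 100 and 0.22 over all circRNAs tested. Brightness differs between probes for reasons other than the amount of RNA and is not read here as abundance.

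**Figure D4:**
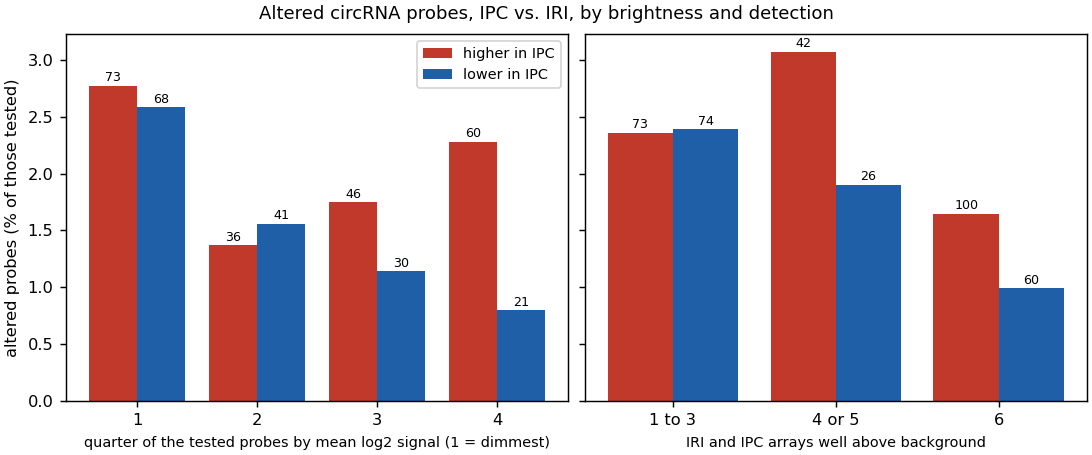
Share of tested circRNA probes that were increased (red) or decreased (blue) in IPC compared with IRI, in %, in 4 groups of like size ordered by mean log2 signal (left) and by the number of IRI and IPC arrays well above background (right), with the number of probes over each bar. The brightest group had 60 increased and 21 decreased probes, and the dimmest had 73 and 68.

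Complete loss or gain of signal was rare. No probe was well above background on all IPC arrays and on no IRI array. The reverse held for 3 probes, which all IRI arrays and no IPC array had well above background. For such a probe a lower bound of the fold is given, since its IPC signals did not count as well above background. It was taken against the dimmest signal that counted on each IPC array, or the probe's own signal where that was higher. The mean log2 signals of the 3 probes in IRI were 4.57, 4.10 and 3.55, at least 2.29-fold, 1.65-fold and 1.12-fold above those bounds. From the measured signals limma gave log2 changes of -1.64, -1.08 and -0.76, in the same order. The first had an unadjusted P of 0.0241 in limma and was among the 160 decreased. The adjusted P-values of the 3 probes from limma were all 1.00, and each probe was well above background on 1 sham array. IPC replicate 3 had the most probes above background in its group, and without it 160 probes were measured in IRI only. Without IRI replicate 1 there were 78.

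The number of altered circRNAs depended on how the signals were processed and on single arrays. On the values the authors deposited, limma gave 95 increased and 51 decreased circRNAs, 0.902% and 0.484% of those tested and 1.39% together, of which 78 and 41 were among the 215 and 160. The methods' t-test on the deposited values gave 43 and 7, or 0.408% and 0.0664%, together 0.475%. These are the counts that the study reported for IPC compared with IRI. Whether the circRNAs are the same ones could not be checked, because the probes are not paired with circRNA names. IRI replicate 3 weighed most among the arrays. Without it 385 were increased and 311 decreased of the 10535 tested. When the scan was also a block the counts were 660 and 472 of 10535, of which 4 passed the adjustment in limma. Among the other arrays, leaving out IPC replicate 3 moved the number decreased to 261 of 10530.

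**Figure D5:**
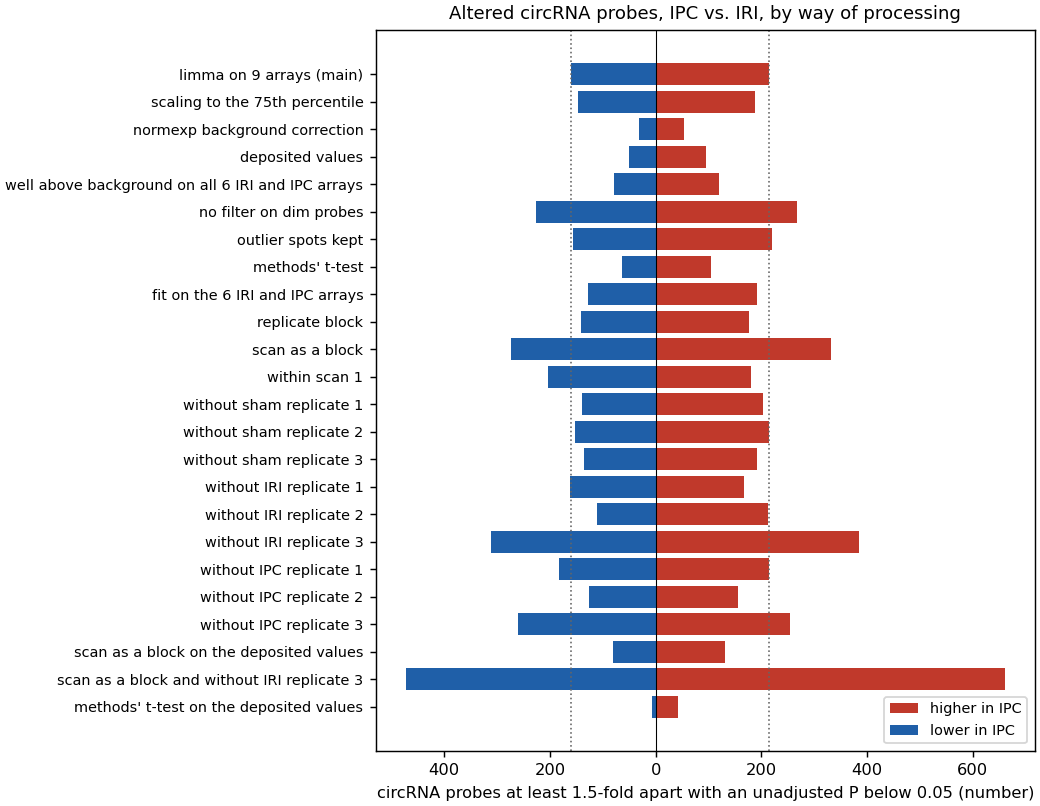
Number of circRNA probes increased (right, red) and decreased (left, blue) in IPC compared with IRI under each way of processing or fitting, with dotted lines at the main counts of 215 and 160. The bars are longest when IRI replicate 3 is left out of the fit blocked by scan (660 and 472), and shortest for the methods' t-test on the deposited values (43 and 7).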

How the data were processed

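The authors extracted liver RNA, treated it with RNase R, labeled it with a single dye, hybridized it to Arraystar circRNA arrays and read the spots with Agilent Feature Extraction 11.0.1.1. They deposited for each array the processed signal, an intensity corrected for background, besides the raw spot and background levels and the scanner's flags. The authors also deposited a table of log2 values, whose array medians were 5.36 to 5.38. The methods state quantile normalization for it. How it was corrected for background is not stated in those methods, and its ranks lay closest to the spot medians (Spearman correlation across probes 0.994 to 0.999 per array), with higher values for brighter spots. The number of sample columns left unused was 0.

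For the circRNA probes, the processed signals were taken to log2, left out where the spot was an outlier, and quantile normalized over the 9 arrays. IPC and IRI were compared with limma 3.58.1 in R 4.3.3 on all 9 arrays, with 6 residual and 3.80 prior degrees of freedom. P-values were adjusted by Benjamini-Hochberg over all probes tested. The scripts were tested on simulated data. The IRI and IPC arrays were also compared within each scan and with the scan as a block. The named probes are the 2 largest changes in each direction among altered probes well above background on all 6 arrays, without overlap and with the same direction in both scans. Members, rule and tests were chosen with earlier results of these data known. Alternatives were scaling to the 75th percentile, normexp on the spot median (offset 50), the deposited values, other filters, outlier spots kept, the methods' t-test, a fit on 6 arrays, blocks, and each array left out. No circRNA spot was saturated (0 on each array). The mRNA arrays were not analysed here.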

Additional observations from a re-analysis of the deposited data

How the results depend on the processing

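The main counts for IPC compared with IRI were 215 increased and 160 decreased circRNAs. Normexp background correction gave 54 and 31, the deposited values 95 and 51, the restriction to probes well above background on all 6 arrays 120 and 78, and the methods' t-test 104 and 64. The scan as a block gave 331 and 274, and on the deposited values 132 and 81. The methods' t-test on the deposited values gave 43 and 7. With 1 array left out the counts ranged from 155 to 660 increased and from 111 to 472 decreased, the upper ends when IRI replicate 3 was left out of the fit blocked by scan. Without the block, leaving it out gave 385 and 311. In the blocked fit without it 4 circRNAs passed the adjusted P in limma, and in all other fits 0 did. A 75th percentile scaling, dim probes kept, outlier spots kept, a fit on the 6 arrays and the fit within scan 1 left both counts within 1.5 times. Blocking by scan on the deposited values or without IRI replicate 3, the methods' t-test on the deposited values, and the arrays left out among probes well above background on all 6 were chosen after seeing the data. The causes of these moves were not tested, except that the restriction tests fewer probes.

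The replicate number as a block gave 177 increased and 141 decreased circRNAs of 10535 tested. The deviations of arrays with the same number correlated at 0.17, -0.51 and -0.07, and 1 of the 6 arrays correlated best with its own number, so the numbers were not taken to pair the samples.

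ASCRP4005781 and ASCRP4003063 stayed past the fold and unadjusted P criteria in all 23 alternatives, with log2 fold changes of 1.91 to 2.68 and -2.23 to -1.68. ASCRP4007565 did so in 21, with 1.72 to 3.21, and ASCRP4009272 in 20, with -2.30 to -0.94. The exceptions were the methods' t-test on either set of values and, for ASCRP4009272, the fit within scan 1.

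Without a filter on dim probes 406 of 14217 circRNAs, or 2.86%, had an unadjusted P below 0.05 for the difference between scans, against 256 of 10517, or 2.43%. The share of scan 1 increases with the same direction in scan 2 was 87.0% with normexp, 92.8% on the deposited values, 84.9% among probes well above background on all 6 arrays and 70.3% without a filter, against 77.2%, and 55.4% to 83.2% with 1 array left out. For the decreases it was 82.4%, 87.5% and 78.8% in the first 3 of these, against 62.1%, and 45.3% to 78.6% with 1 array left out. Among probes well above background on all 6 arrays, leaving out 1 array gave 55.2% to 91.5% for the increases (89.1% without IRI replicate 3) and 50.6% to 90.5% for the decreases (81.8% without IPC replicate 1). Over all circRNAs tested, 52.0% were higher and 48.0% lower in scan 2 in the main values. For probes well above background on all 6 arrays these shares were 49.9% and 50.1%. They were not computed for normexp, the deposited values or the unfiltered probes, so the shares of scan 1 changes there lack that comparison. The difference in probes well above background, IPC minus IRI, was -652. With 1 array left out it was between -2019 and 431, positive without IRI replicate 2 and, at 63.7, without IPC replicate 2. With the scanner's weaker flag for a positive and significant signal, 11 probes were measured in IRI only and 3 in IPC only. With the flag for well above background the numbers were 3 and 0, and with 1 array left out 3 to 160 and 0 to 6. Signals near background limit the small folds: the dimmest 2634 probes had a median standard error of 0.45 on the log2 scale.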
